A study of Mus musculus with 38 samples.

Results

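The 10 genes described here, of 22367 protein-coding genes in the annotation, mark or specify the inhibitory interneurons of the cerebral cortex: Gad1, Gad2, Dlx1, Dlx2, Lhx6, Sst, Npy, Vip, Pvalb and Calb2. They were chosen by name and not by a measured value, although earlier results of these data were known. For each of them the peaks of all 11 lists were collected over the gene body and 100 kb on either side in mouse NCBI37/mm9. Cortical interneurons release the inhibitory transmitter GABA, and their classes are told apart by the neuropeptides and calcium-binding proteins that they make. SATB1 is a nuclear protein that binds AT-rich DNA prone to unpairing, the base-unpairing regions or BURs, and it is known for its part in the maturation of interneurons that express somatostatin or parvalbumin. In vitro, SATB1 favours stretches in which a single strand carries A, T and C but no G.

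The study mapped SATB1 with urea ChIP-seq, which spins formaldehyde-fixed chromatin through a urea cushion to strip proteins that are not crosslinked to DNA, and only then immunoprecipitates it. All mice were wild type for Satb1 on C57BL/6. Brain lists came from single cells of the cortex, labelled 5 weeks for replicate 1 and 6 weeks for replicate 2, although the extraction protocol gives day P13. The titles give 10 and 12 cycles without naming them. Thymocyte lists came from P13 thymus with 4 µl of antibody for replicate 1 and 2 µl for replicate 2. Skin lists were labelled P13, while the protocol names keratinocytes of P5 pups, and their titles give 55 s and 60 s. For brain and skin the methods of the study state yet other ages. These 6 lists shared the home-made SATB1 antibody 1583D. Thymocyte SATB1 was also mapped by standard ChIP-seq, with antibody ab109122 in replicate 1 and 1583D in replicate 2, and urea ChIP-seq of CTCF, an insulator protein, gave 1 list for thymocytes and 1 for skin. These lists were labelled P13 too, but the titles of standard replicate 1 and of thymocyte CTCF give 6 weeks, and the skin CTCF protocol names P5, so the lists may differ in age. The BUR reference map was made in vitro from recombinant SATB1 and purified thymus DNA. The labels do not say whether the 2 lists of a tissue came from separate animals, and both brain lists carry the same experiment number, as do both thymocyte and both skin urea lists, so that the spread between them may be technical. A reporting checklist of the study describes its replicates in general as cells from different animals, without naming these lists. The protocol notes that among the cortical cells only neurons make SATB1, and interneurons are a minority of cortical neurons, so a brain peak at an interneuron gene cannot be assigned to interneurons. No expression values were used, and the tissue labels were not checked against marker genes.

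List length differed far more between tissues than within them, and this bears on every count that follows. Brain lists held 117963 and 109154 peaks, thymocyte urea SATB1 lists 45049 and 38882, and skin lists 11210 and 10846. The BUR reference map held 238380 regions. The study describes the totals of aligned reads as similar between the cell types. The lists hold no read counts, so that statement was not checked here, and list length and tissue cannot be told apart.

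Around the interneuron genes, urea SATB1 peaks were most frequent in brain, next in thymocytes and least in skin. The 10 windows form 9 loci of 2025 kb in all, since those of Dlx1 and Dlx2 overlap. Brain replicates had 45 and 49 peaks in them, both thymocyte replicates 23, and skin replicates 9 and 10. The brain to thymocyte ratio in the loci was 2.04, between 1.96 and 2.13 over the 4 pairs of lists, while the whole lists stood at 2.71, between 2.42 and 3.03. For brain to skin the loci gave 4.95, between 4.5 and 5.44, and the whole lists 10.3, between 9.74 and 10.9. In both cases the ratios near these genes lay below those of the whole lists, and the ranges of the pairs did not overlap. The pairs reuse 2 lists per tissue, so their ranges do not measure counting error. For brain to thymocytes the lower ratio was not particular to these genes. Per gene window its median was 2.21 over all protein-coding genes with a ratio and 2.2 over the members. With each list cut to its 10846 strongest peaks, the brain to thymocyte ratio was 0.889 (SD 0.491 over the pairs of lists). The brain to skin ratio was 0.444 (SD 0.143). A mean of 4 brain peaks then remained in the loci, and the pairs share lists, so these SDs do not measure the error of a ratio. Whether either ratio differs from 1 was not tested.

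Both brain lists held more peaks than all 4 thymocyte and skin lists at 9 of the 10 genes, against 67% of all protein-coding genes. The exception was Lhx6. The exact one-sided permutation test for the order skin, thymocytes, brain called 7 of the 10 genes at an adjusted p under 0.05, against 51.2% of all genes, each with the smallest p that 90 arrangements allow (0.0111, adjusted 0.0235). Lhx6 (adjusted p = 0.254), Vip (adjusted p = 0.0875) and Pvalb (adjusted p = 0.0531) were not called by this exact test. That order was already known from the whole lists. No gene was called when any 1 of the 6 lists was left out, where 30 arrangements remain and 7 or 8 of the members had an unadjusted p under 0.05 in the exact test. The two-sided exact permutation test of brain against the other 4 lists cannot go below p = 0.0667, which 8 of the genes reached, with p = 0.133 for Sst and p = 1 for Lhx6.

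As a share of list length the order of the tissues changed. None of the 10 genes had a higher share of both brain lists than of all 4 others, against 15.1% of all genes. Lhx6, Gad1, Gad2, Pvalb and Dlx2 had a lower share, 5 of 10 against 19.6% of all genes. A single skin peak equals 8.92 or 9.22 per 100000, above every brain value of the members. At these counts 1 skin peak is enough to prevent a higher brain share. The lower share of Lhx6, Gad1 and Dlx2 rests in skin on 1 peak per list. The gene with the widest gap was Gad2, with 7.63 and 8.25 brain peaks per 100000 peaks of the list, 8.88 and 10.3 in thymocytes and 26.8 and 27.7 in skin.

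**Figure D1:**
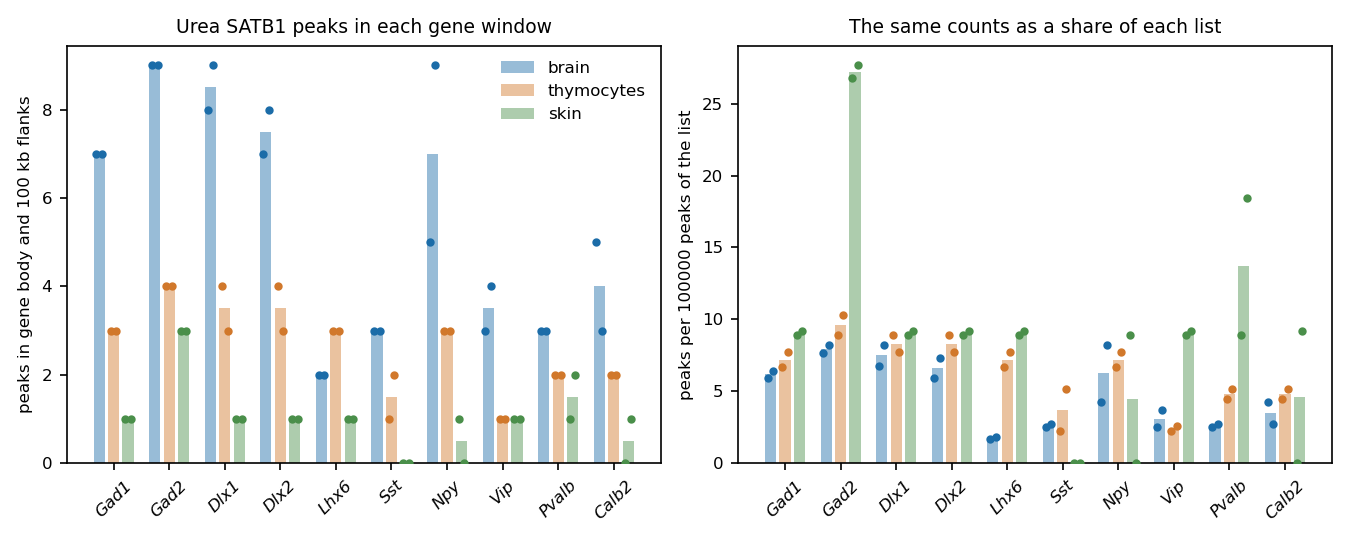
Urea SATB1 peaks in the window of each gene, as counts on the left and per 100000 peaks of the list on the right. Bars are means of 2 lists and points are the lists. On the left the brain points lie above all others at 9 genes, and on the right the skin points for Gad2 stand at 26.8 and 27.7.

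Urea SATB1 peaks that overlapped between lists were joined into sites, and each peak has a fold enrichment, the height of its summit over the local background of its own list, which is not scaled between lists. Among the sites in both brain lists, the strongest of each locus lay outside the gene itself at all 9 loci, often inside a neighbour. The 5 loci with the highest folds were Gad1, Dlx1/Dlx2, Pvalb, Sst and Vip, and Calb2 had the lowest. Their DNA is shown because BURs, which SATB1 binds, are AT-rich and hold stretches without G or without C on a single strand. Each line gives the plus strand of NCBIM37 from 100 bases before to 100 bases after the brain replicate 1 summit, with the longest stretch that lacks G or lacks C in capitals.

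Gad1 locus, chr2:70515716-70515916: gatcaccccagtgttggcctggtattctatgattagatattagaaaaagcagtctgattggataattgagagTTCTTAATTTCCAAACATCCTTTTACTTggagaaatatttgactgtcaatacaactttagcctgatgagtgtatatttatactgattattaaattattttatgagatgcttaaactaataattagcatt
Dlx1/Dlx2 locus, chr2:71373610-71373810: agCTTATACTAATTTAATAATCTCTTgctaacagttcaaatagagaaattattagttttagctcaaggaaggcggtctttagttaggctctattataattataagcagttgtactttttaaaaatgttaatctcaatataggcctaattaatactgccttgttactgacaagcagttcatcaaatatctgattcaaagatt
Pvalb locus, chr15:78089310-78089510: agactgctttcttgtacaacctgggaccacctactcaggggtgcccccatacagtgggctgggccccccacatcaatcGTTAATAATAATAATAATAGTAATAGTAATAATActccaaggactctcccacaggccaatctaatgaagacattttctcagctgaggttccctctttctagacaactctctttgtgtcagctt
Sst locus, chr16:23842866-23843066: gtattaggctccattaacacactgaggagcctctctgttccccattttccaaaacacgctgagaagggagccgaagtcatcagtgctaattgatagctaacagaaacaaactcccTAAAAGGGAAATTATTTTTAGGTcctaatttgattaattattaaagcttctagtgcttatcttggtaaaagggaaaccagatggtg
Vip locus, chr10:4696443-4696643: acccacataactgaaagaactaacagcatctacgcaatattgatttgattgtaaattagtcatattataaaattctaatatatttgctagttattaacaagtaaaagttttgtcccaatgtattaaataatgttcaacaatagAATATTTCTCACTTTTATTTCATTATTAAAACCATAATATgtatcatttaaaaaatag
Calb2 locus, chr8:112769191-112769391: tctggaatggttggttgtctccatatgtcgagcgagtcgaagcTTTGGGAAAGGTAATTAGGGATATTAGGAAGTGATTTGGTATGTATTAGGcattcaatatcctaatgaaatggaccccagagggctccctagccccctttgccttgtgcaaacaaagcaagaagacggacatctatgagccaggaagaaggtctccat

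The AT content of these windows ran from 54.2% in Calb2 to 77.6% in Vip. The Pvalb window had 55.2% AT, and the Calb2 window had both the lowest AT content and the lowest brain fold. The capital stretches were 28 bases in Gad1, 24 in Dlx1/Dlx2, 34 in Pvalb, 23 in Sst, 40 in Vip and 50 in Calb2. The median longest stretch was 30 bases over brain replicate 1 peaks in the loci and 31 over that whole list. Gad1, Dlx1/Dlx2 and Sst lay below both medians, and Pvalb, Vip and Calb2 above them. Over all 45 brain replicate 1 peaks in the loci the median AT content was 68.7%, ranging from 46.8% to 79.6%, against 71.1% for all peaks of that list. Peaks on a BUR had a median of 70.9% in the loci and 72.6% in the whole list, and peaks off a BUR 61.2% and 66.7%. The median fold of the same peaks was 10.1 on a BUR and 5.94 off it in the loci, and 8.24 and 5.37 in the whole list.

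Gad1 and Gad2 encode the enzymes that make GABA from glutamate, so nearly every cortical interneuron uses them. At Gad1 (ENSMUSG00000070880.4, chr2:70391129-70440071) both brain lists had 7 peaks, both thymocyte lists 3 and both skin lists 1. The groups did not overlap, and the lists of each tissue gave the same count. The strongest site of all loci lay 124 kb downstream of its start at chr2:70515504-70516168, reaching into a coding exon of Gorasp2, a gene for a Golgi stacking protein. There the fold enrichment was 21.5 and 22.9 in brain, 21.0 in both thymocyte lists and 12.7 and 14.6 in skin. Brain and thymocyte folds were close at this site, and it lay on a BUR with an in vitro fold of 18.0. The next strongest site, 40.6 kb upstream at chr2:70349914-70350517, had folds of 21.4 and 18.4 in brain but 5.08 and 6.76 in thymocytes and no skin peak. Inside Gad1 the sole site was intronic at chr2:70417763-70418236, present in both brain lists (8.24 and 7.29) and no other, with no BUR.

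At Gad2 (ENSMUSG00000026787.3, chr2:22477725-22549394) both brain lists had 9 peaks, both thymocyte lists 4 and both skin lists 3. The strongest brain site, at chr2:22412980-22413735 over an exon of Myo3a, had folds of 15.2 and 11.0 in brain and 8.89 and 5.72 in thymocytes. A neighbouring site at chr2:22423299-22423897, nearly equal in mean brain fold, had 12.1 and 14.1 in brain and no peak elsewhere. The brain site nearest the Gad2 start was 27.1 kb downstream, over an exon of Gad2 at chr2:22504831-22505765, with folds of 10.5 and 9.82 in brain and no peak elsewhere. Gad2 also held the sharpest case in the other direction. At chr2:22443114-22443653, 34.1 kb upstream in an intron of Myo3a, the fold was 24.0 and 21.2 in skin, 8.35 and 6.87 in thymocytes, and in brain 5.70 in replicate 2 with no peak in replicate 1. The site, singled out after its values were seen, lay on a BUR and overlapped a peak of both standard SATB1 lists.

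Dlx1 and Dlx2 are neighbouring homeobox genes that drive the development of interneurons in the embryonic ventral forebrain. Their windows share nearly all peaks and are not independent. At Dlx1 (ENSMUSG00000041911.3, chr2:71366170-71372038) the brain lists had 8 and 9 peaks, the thymocyte lists 4 and 3 and both skin lists 1. At Dlx2 (ENSMUSG00000023391.7, chr2:71381466-71384811) the counts were 7 and 8 in brain, 4 and 3 in thymocytes and 1 in both skin lists. Dlx1 had the most brain peaks per length among the members, 4.13 per 100 kb, above 79% of all genes. The strongest site stood between the genes, 7.22 kb downstream of the Dlx1 start at chr2:71373389-71374042 in an intron of the antisense transcript Dlx1as, with folds of 21.4 and 19.6 in brain and 11.2 and 8.42 in thymocytes. It lay on a BUR of in vitro fold 12.1.

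The Dlx1 start site was the only one of the 10 that lay within a site found in both brain lists. The peak of replicate 2 covered the start itself, and that of replicate 1 began 0.04 kb from it. This site, chr2:71366084-71366619, had folds of 11.1 and 9.38 in brain and 6.35 in thymocyte replicate 1, with no peak in thymocyte replicate 2 or in skin. It overlapped no BUR. The same length around its brain summit, in the first exon of Dlx1, held 61.2% AT and 8 CpG dinucleotides, against 0 to 4 in the 6 windows printed above. Going upstream, 2 further sites on BURs, at 3.73 and 5.76 kb, were found in both brain lists and no other.

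Lhx6 encodes a LIM homeodomain factor needed by interneurons of the medial ganglionic eminence, among them the somatostatin and parvalbumin classes. It was the member with the fewest brain peaks. At Lhx6 (ENSMUSG00000026890.11, chr2:35937470-35960928) both brain lists had 2 peaks, both thymocyte lists 3 and both skin lists 1. Brain therefore lay below thymocytes, a ratio of 0.667, and only 2.03% of the genes with a ratio had a lower value. The window held just 3 BURs. None of the peaks fell in Lhx6. The strongest brain site was in an intron of Mrrf, 40.1 kb upstream at chr2:36000995-36001530, with folds of 15.9 and 11.7 in brain and 9.77 and 6.50 in thymocytes, on a BUR of in vitro fold 17.4. A site at chr2:35979303-35979666, 18.4 kb upstream in an intron of Rbm18, appeared in both thymocyte lists (5.08 and 7.02) and in no brain or skin list.

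**Figure D2:**
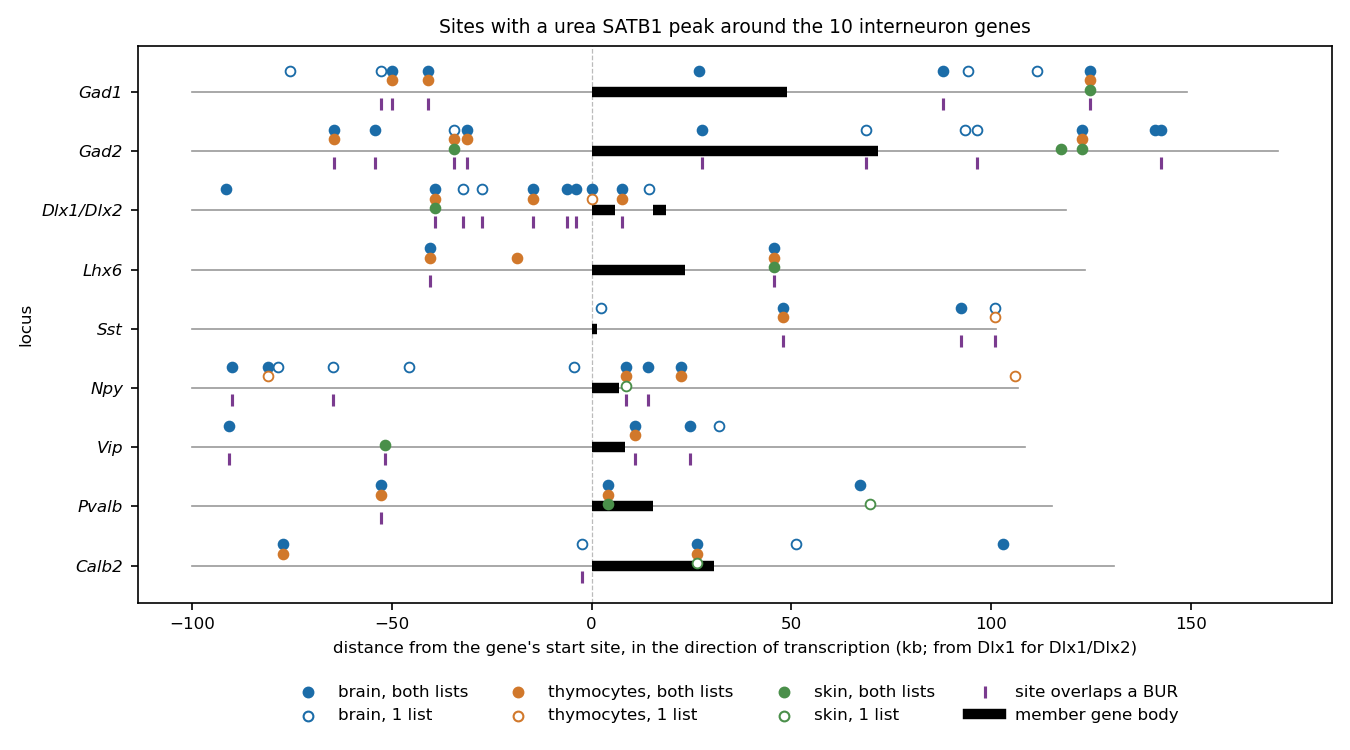
Sites with a urea SATB1 peak in the 9 loci by distance from the start site in kb, in the direction of transcription. Filled circles mark sites in both lists of a tissue and open circles sites in 1 list, ticks mark overlap with a BUR, and black bars are the member genes. Brain sites lie mostly outside the genes, as does most of each window, and the single one at a start site is that of Dlx1.

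Sst, Npy and Vip encode the neuropeptides somatostatin, neuropeptide Y and vasoactive intestinal peptide, the first and last of which name separate interneuron classes. At Sst (ENSMUSG00000004366.3, chr16:23889667-23890930) both brain lists had 3 peaks, the thymocyte lists 1 and 2, and skin none. The 9 BURs of the window set it near the median of all genes. The site of highest fold, also the nearest to the start among those in both brain lists, was intergenic, 47.7 kb downstream at chr16:23842592-23843257, with 16.1 and 18.7 in brain and 10.1 and 8.32 in thymocytes. A closer site at 2.21 kb was found in brain replicate 2 alone, at a fold of 4.64.

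Npy (ENSMUSG00000029819.6, chr6:49772709-49779506) was the member on which the brain lists differed most, with 5 peaks in replicate 1 and 9 in replicate 2. Thymocyte lists had 3 peaks each and skin lists 1 and 0. All 4 additional peaks of brain replicate 2 lay upstream of Npy, between 4.07 and 78.3 kb away. The strongest site, 8.34 kb downstream at chr6:49781053-49781557, was better shared, with 11.8 and 12.0 in brain, 9.44 and 8.75 in thymocytes and 4.40 in skin replicate 1. No other protein-coding gene was annotated in the window, which also had no peak of either standard SATB1 list and none of thymocyte CTCF.

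Vip (ENSMUSG00000019772.4, chr10:4698927-4707323) had 3 and 4 peaks in brain and 1 in each thymocyte and skin list. The strongest site, again the nearest to the start, was 10.5 kb downstream at chr10:4696297-4696836, with folds of 15.5 and 15.9 in brain and 7.41 and 5.98 in thymocytes. Another on a BUR 24.3 kb downstream, chr10:4682316-4683037, had 12.5 and 12.8 in brain and no peak elsewhere. The skin peak was a different site, 51.5 kb upstream at chr10:4758842-4759287, with folds of 13.0 and 13.9 in skin and no thymocyte or brain peak. It lay on a BUR of in vitro fold 11.8.

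Pvalb and Calb2 encode the calcium-binding proteins parvalbumin, of fast-spiking interneurons, and calretinin. At Pvalb (ENSMUSG00000005716.10, chr15:78021544-78036830) both brain lists had 3 peaks, both thymocyte lists 2, and the skin lists 1 and 2. The strongest site was in an intron of Ncf4, 52.3 kb upstream at chr15:78089162-78089698, with folds of 18.2 and 17.7 in brain and 11.5 and 12.4 in thymocytes. A site in an intron of Pvalb itself, 3.89 kb from the start at chr15:78032572-78032937, occurred in all 6 urea lists without a BUR, with folds of 5.37 and 5.52 in brain, 8.49 and 5.98 in thymocytes and 7.68 and 9.83 in skin. Here the brain folds were below those of each other list.

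At Calb2 (ENSMUSG00000003657.7, chr8:112661402-112692110) the brain lists had 5 and 3 peaks, both thymocyte lists 2 and the skin lists 0 and 1. Its strongest brain site, 77.0 kb upstream at chr8:112769068-112769501, had 8.82 and 5.74 in brain against 14.8 and 15.3 in thymocytes. An intronic site at chr8:112665436-112665883, 26.2 kb from the start, likewise had 4.98 and 6.19 in brain, 9.65 and 10.4 in thymocytes and 5.12 in skin replicate 2. Thymocyte folds were above brain folds at both, and neither lay on a BUR.

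The 9 loci held 62 sites. Brain alone held 34 of them (54.8%), brain and thymocytes 15, all 3 tissues 8, thymocytes alone 2 and skin alone 3. Over the whole genome brain alone held 62.4% of 139917 sites, so the majority of brain-only sites was not particular to these genes. Of the brain-only sites, 16 were in both brain lists and 18 in just 1. Replicate 2 had a peak at 37 of the 45 peaks of brain replicate 1 (82.2%), near the 77.7% of the whole list. Among the 37 sites in both brain lists, 5 lay in the body of a member and 3 within 5 kb of its start, and the median distance to the start was 45.3 kb. These values depend on the width of the windows and were not compared with randomly placed sites.

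Brain sites that were also thymocyte sites had the higher brain folds. The 19 sites in both brain and both thymocyte lists had a median brain fold of 11.9, from 5.45 to 22.2, and the 16 sites in both brain lists alone a median of 6.24, from 4.59 to 13.1. Whole lists showed the same order, since brain replicate 1 peaks shared with replicate 2 and both thymocyte lists had a median fold of 12.9 and those in no thymocyte or skin list 6.71. The difference between the medians was not tested.

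**Figure D3:**
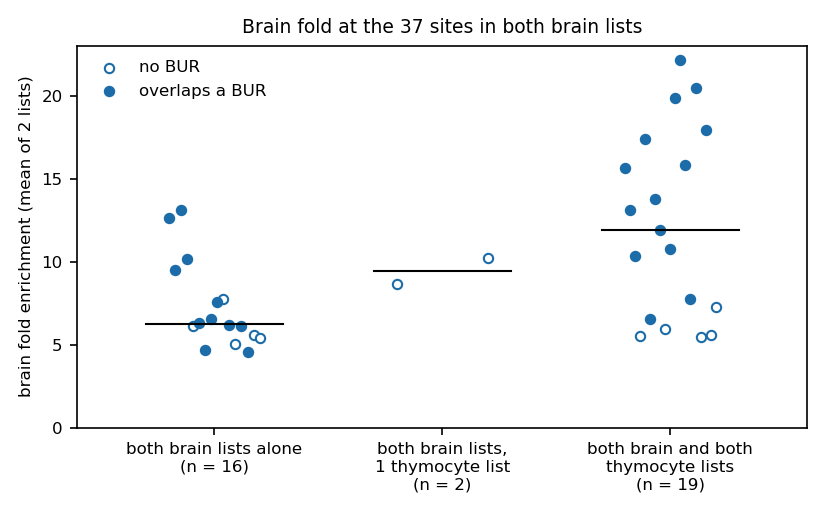
Mean brain fold enrichment of the 37 sites in both brain lists, by their presence in thymocyte lists. Points are sites, filled where they overlap a BUR, and lines are medians, which stand at 6.24 for the 16 sites in brain lists alone and 11.9 for the 19 in both thymocyte lists.

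The loci held 105 BURs, and SATB1 occupied only part of them in any tissue. Brain lists overlapped 30 and 29, thymocyte lists 15 and 16, and skin lists 6 and 5. In percent these were 28.1 ± 0.673 in brain, 14.8 ± 0.673 in thymocytes and 5.24 ± 0.673 in skin (SD, n = 2). The order gave p = 0.0111 in the exact one-sided permutation test, the smallest it allows. The study had already reported this order for the share of BURs bound over the genome, so the p-value is no independent evidence for it. With each list cut to its 10846 strongest peaks the order was not kept. Skin then stood at 4.76%, brain at 3.81% and thymocytes at 3.33%. Over all BURs of the genome the percentages were 34.8 ± 2.03, 13.4 ± 1.16 and 3.64 ± 0.0504, so that the loci were below the genome in brain and above it in thymocytes and skin, which was not tested. Beside other gene windows the brain value was not low. Among windows with at least 5 BURs, the medians for 8 members were 28.9% in brain, 16.7% in thymocytes and 5.72% in skin. Those over 19184 protein-coding genes were 27.8%, 11.1% and 0%. No urea SATB1 list overlapped 70 of the 105 BURs (66.7%, against 60.4% of all). Both brain lists and no other covered 11 (10.5%, against 15.7%), both brain and both thymocyte lists without skin 10 (9.52%, against 7.04%), and all 6 lists 3 (2.86%, against 2.79%).

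BUR supply differed widely between members. Dlx1 and Dlx2 each had 17 BURs in their windows, of which both brain lists covered 6 (35.3%) and both thymocyte lists 3 (17.6%). Gad2 had 18, with 6 and 7 covered in brain and 3 in each thymocyte list. Vip, with 16 BURs, had 3 covered in brain (18.8%) and 1 in each other list. Calb2 had 9, of which brain replicate 1 covered 1 and no other list any. Pvalb (4 BURs) and Lhx6 (3 BURs) had fewer than 5, too few for a percentage to carry weight, and their counts of covered BURs were the same in brain and thymocytes.

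**Figure D4:**
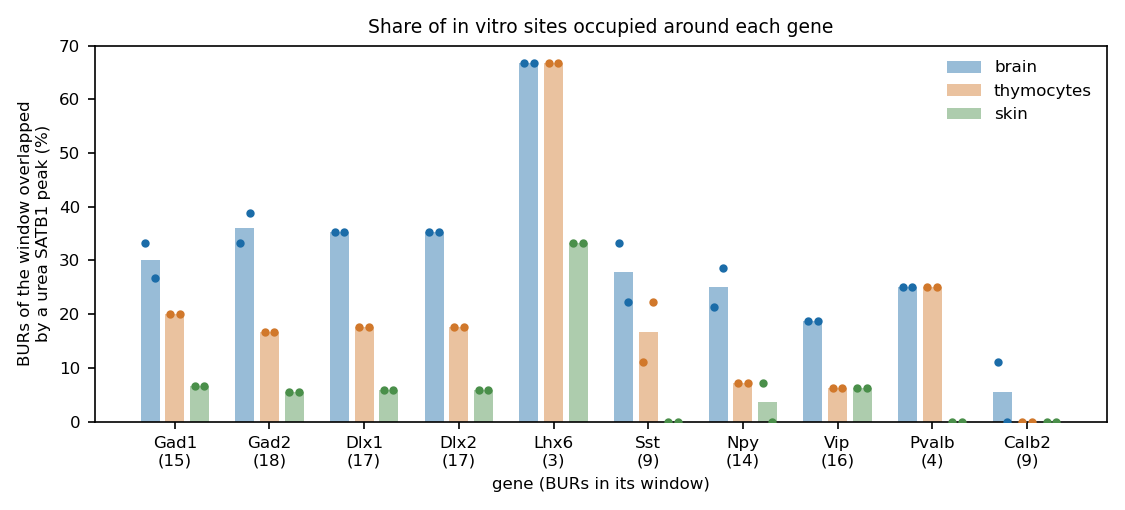
Percent of the BURs in each gene window that a urea SATB1 peak overlapped, with the number of BURs in parentheses. Bars are means of 2 lists and points are lists. Brain stands at 35.3% for Dlx1 and Dlx2 and at 18.8% for Vip, and brain and thymocytes coincide at Lhx6 and Pvalb.

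The share of urea SATB1 peaks on a BUR was also counted near the interneuron genes. In brain it was 62.9% ± 5.29 in the loci and 72.9% ± 0.109 in whole lists (SD, n = 2). In thymocytes the values were 67.4% ± 3.07 and 76.7% ± 1.31, and in skin 58.3% ± 11.8 and 78.9% ± 0.699. Of the 37 sites in both brain lists 12 had no BUR, among them the Dlx1 start site and the intronic sites of Gad1, Pvalb and Calb2. These differences were not tested.

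Standard ChIP-seq and CTCF peaks were compared with the urea SATB1 sites. Standard SATB1 lists had 51 and 29 peaks in the loci, CTCF 34 in thymocytes and 44 in skin. Gad2 had the most standard peaks, 12 in both lists, and Npy none in either. CTCF peaks numbered 7 in thymocytes and 8 in skin at Sst, and 4 and 10 at Gad2. Of the 62 sites, 4 (6.45%) overlapped a CTCF peak and 7 (11.3%) a standard SATB1 peak, against 1.61% and 1.42% of all sites of the genome. None of the 34 brain-only sites overlapped either, where the genome shares for brain-only sites were 0.423% and 0.354%. Brain CTCF was not measured. The 3 sites found in skin alone, at Vip, Gad2 and Pvalb, overlapped a skin CTCF peak and at least 1 standard SATB1 peak, as 69.8% and 53.8% of all skin-only sites did. Of the thymocyte urea peaks in the loci, 4 of 23 in both lists (17.4%) overlapped standard replicate 1, against 0.967% ± 0.102 of the whole lists (SD, n = 2). For brain the values were 7.41% ± 1.06 and 0.473% ± 0.0201 (SD, n = 2). Standard replicate 2 met thymocyte urea peaks at Gad2 alone. Of its 29 peaks in the loci, 2 overlapped each thymocyte urea list (6.90%, against 1.25% and 1.23% of all its peaks). Of the skin urea SATB1 peaks in the loci, 3 of 9 and 4 of 10 overlapped skin CTCF (12.8% and 12.1% of the whole lists), and 6 of 9 and 6 of 10 overlapped standard replicate 1 (7.78% and 7.97% of the whole lists). Standard peaks in the loci lay on BURs in 10 of 51 (19.6%) and 5 of 29 (17.2%) cases, against 3.78% and 5.20% of those lists. All these genome and whole-list shares include peaks far from genes. No such overlap was computed over the windows of other genes, so the differences cannot be called particular to these loci. They were not tested.

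The closest standard SATB1 peak to a start site was 1.21 kb from that of Dlx2, in replicate 1, while replicate 2 came no nearer than 23.7 kb to it. CTCF covered the Calb2 start site in both thymocytes and skin and came within 1.14 and 1.12 kb of the Dlx2 start site. The nearest urea SATB1 peak in brain was 10.8 and 4.21 kb from the Dlx2 start site.

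Set beside other genes of the cortex, the members were close to the middle. Their median was 2.27 brain peaks per 100 kb of window, against 1.90 for all protein-coding genes, 2.67 for 33 other GABAergic and interneuron genes, 3.67 for 19 genes of excitatory neurons and 1.16 for 16 glial genes. The ordered test called 24 of the 33, 16 of the 19 and 4 of the 16 by the same threshold, against 51.2% of all protein-coding genes. Window length was not matched between the lists. With flanks of 50 kb the test called 31.1% of all genes, so its calls vary with window length. The differences between the lists were not tested. Among the other GABAergic genes, Erbb4, a neuregulin receptor of interneurons, had the most brain peaks (173 and 166 in its window, 13.3 per 100 kb) and Npas1 the fewest (1 in both lists). For excitatory neurons the extremes were Foxp2 with 88 and 83 and Slc17a7, the vesicular glutamate transporter gene, with 0 in both. Mog, with 6 and 4, and Cx3cr1, with 0 and 1, bounded the glial genes. In BURs per 100 kb the members' median was 6.33, against 4.56 for all genes, 6.14 for the other GABAergic genes, 6.24 for excitatory and 3.58 for glial genes.

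The brain to thymocyte ratio of the members had a median of 2.2, against 2.21 over the 18806 genes with a ratio, 2 for the other GABAergic genes, 3.08 for excitatory neuron genes and 1.5 for glial genes. Vip had the highest, 3.5, above 79.8% of those genes, and Lhx6 the lowest.

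**Figure D5:**
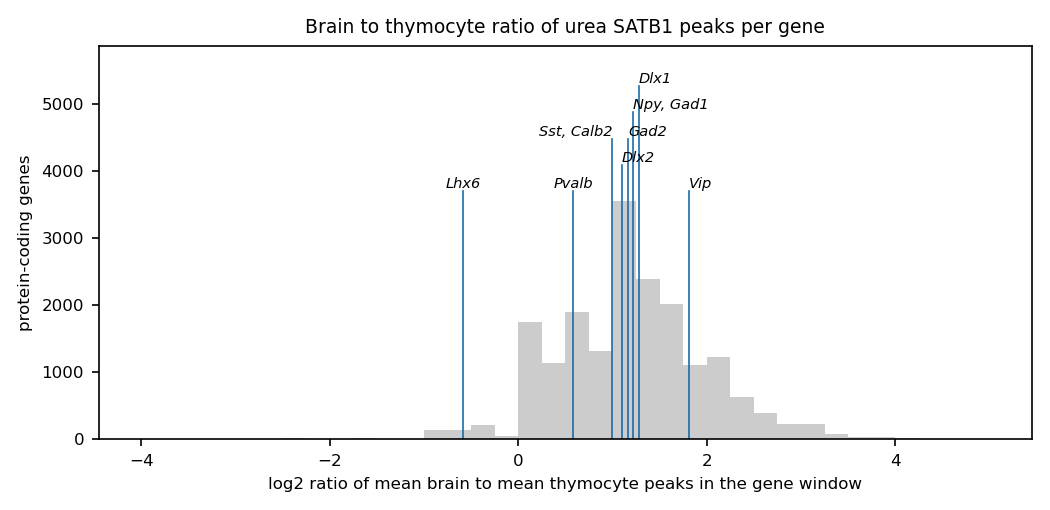
Distribution over protein-coding genes of the log2 ratio of mean brain to mean thymocyte peaks in the gene window, with the members as lines. Of the 18806 genes with a ratio, those with no brain peak have no log2 value and are not drawn, nor are any beyond the axis. Most members lie near the centre of the distribution, with Lhx6 in the lower tail and Vip above the middle.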

How the data were processed

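Peak lists of 11 samples were used. The authors mapped the reads to NCBI37/mm9 with bowtie2 2.3.1, keeping unique matches, and called the peaks of each list separately in MACS2 2.2.7 (q-value 0.01). Whether an input entered the calling is not given in the sources used here. For each peak the deposited lists give the position, the summit, a display score that was not used, the fold enrichment (the authors' ratio of the summit to the local background of its own sample) and the −log10 p-value and q-value that the authors' peak caller computed. Read counts are not part of them, so depth could not be computed and intervals for counting error cannot be had. The study describes total aligned reads as similar between cell types.

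The window of a gene was its body in GENCODE vM1 plus 100 kb on each side, and overlapping windows (Dlx1 and Dlx2) were merged into 1 locus for sums. A peak counted when it shared at least 1 bp with a window, a BUR or another peak. A site is a cluster of overlapping urea SATB1 peaks. Peaks per window were tested over all 22367 protein-coding genes with the one-sided Jonckheere-Terpstra test, by exact permutation, for the order skin, thymocytes, brain (90 arrangements), with Benjamini-Hochberg adjustment over all of them. That order is known from these same lists genome-wide. An exact two-sided permutation test compared brain with the 4 other lists. On simulated windows the ordered test found 85.5% of 200 planted 10-fold changes and 45% of 200 planted 3-fold changes at an unadjusted p under 0.05, with 2.34% and 2.14% of the other windows. Changes were planted only in windows with a mean of at least 3 peaks over the urea SATB1 lists. The windows of Sst, Lhx6, Vip, Pvalb and Calb2 have a lower mean, so these rates do not apply to them. The adjusted threshold was 0.05.

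The members and all gene lists were chosen with earlier results of these data known. All 10 members were named, with the site of highest mean fold and the site nearest the start site among those in both brain lists. Of the other gene lists, the genes with the most and the fewest brain peaks per 100 kb were named. Sequences (100 bases on each side of the brain replicate 1 summit, NCBIM37) are those of the 5 loci with the highest site folds and of the lowest. Alternative settings were peaks with −log10 q of 5 or more, other window sizes, the summit in the window or the BUR, 50% of the length, equal list sizes, only peaks on BURs, all annotated genes, a replicate block, and each list left out. Analyses used Python 3.11.15, numpy 2.4.6, pandas 2.3.3 and matplotlib 3.10.9. Knockout, input, Hi-C and 4C samples and a second thymocyte CTCF sample were not used here.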

Additional observations from a re-analysis of the deposited data

How the results depend on the processing

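Of 135 values recomputed under an alternative, 91 stayed within the spread of the lists or, for counts, within 1.5 times, 42 moved and 2 reversed. The reversals came with urea SATB1 lists of equal size, the 10846 peaks of highest −log10 q in each. The ratio of brain to thymocyte peaks was then 0.889 (SD 0.491 over pairs of lists) and that of brain to skin peaks 0.444 (SD 0.143). A mean of 4 brain peaks remained in the loci. By count and by share 1 member had both brain lists above the others, against 4.99% of all genes. The ordered test called 0 members and 0% of all genes (0 members at an unadjusted p under 0.05). BURs bound were 3.81% in brain, 3.33% in thymocytes and 4.76% in skin, so skin stood highest, and 100% of brain peaks were on a BUR.

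Within gene bodies alone, a mean of 5.5 brain and 0.5 standard SATB1 peaks remained, 5 CTCF peaks in thymocytes and 4 in skin. There 2 members had both brain lists above the others, against 21.0% of all genes, and 2 by share, against 9.51%. The ordered test called 0 members and 0% of all genes (0 members at an unadjusted p under 0.05). The ratios were 2.2 and 3.67, 16.7% of BURs were bound in brain, 0% in thymocytes and 0% in skin, and 26.7% of brain peaks were on a BUR. With 50 kb on each side the means were 29 brain and 19.5 standard peaks, with 17 and 23 CTCF peaks. There 1 member was higher by share, against 16.6% of all genes. The brain to thymocyte ratio was 1.87, 16.4% of BURs were bound in thymocytes and 69.3% of brain peaks were on a BUR.

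With the summit in the BUR, or with 50% of the length covered, 26.2% of BURs were bound in brain and 13.8% in thymocytes, and under the latter 55.4% of brain peaks were on a BUR. Among peaks on BURs alone, 4 members were called by the ordered test, against 36.7% of all genes. With the replicate block, 36 arrangements remained and 0 members were called (7 at an unadjusted p under 0.05), since the lowest adjusted p over all genes was 0.0562 in this exact permutation test. Same-numbered lists did not deviate together (r between -0.0276 and 0.00847 over 22367 windows), and the labels do not tie them. Without any single list, 30 arrangements remained and 0 members were called by the ordered test (7 to 8 at an unadjusted p under 0.05), as were 0% of all genes. By share 0 to 1 members were higher, against 16.1% to 20.5% of all genes. Peak calls without read counts set the limit here, because list length and tissue cannot be told apart.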
